A study of Mus musculus with 7 samples.

Results

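ICOS, CD28 and CTLA-4 are receptors on T cells, and ICOSL, CD80 and CD86 are the proteins they bind on antigen-presenting cells. The genes of these 6 proteins were followed as 13 probe sets on 7 arrays of mouse spleen, taken by gene symbol from 22626 probe sets that stand for 12393 genes with a symbol of their own. Receptors Icos, Cd28 and Ctla4 had 5 probe sets, and ligands Icosl, Cd80 and Cd86 had 8.

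A T cell needs a second signal beside that of its antigen receptor, and CD28 gives it when CD80 or CD86 is bound. CTLA-4 binds the same ligands more tightly, restrains the cell and removes them from the presenting cell. ICOS appears on T cells after activation, binds ICOSL and signals strongly through PI3 kinase. In graft-versus-host disease donor T cells are driven by recipient antigens in the spleen, and these receptors shape how far they expand.

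All recipients were female C57BL/6 (B6) mice aged 9 to 12 weeks, irradiated with 10.0 Gy and given splenocytes 4 to 6 h later, and spleen cells were collected on day 4. The first group (2 arrays) received C3H/HeN cells, an allogeneic graft, and an antibody against ICOSL from day 0, at 500 µg and then 200 µg every other day. The second group (2 arrays) received the same graft and the same antibody on the same dose plan from day 3. The treatment was thus a day old at collection, before a 200 µg dose was due. The third group, called isotype (2 arrays), received the allogeneic graft and control rat IgG at 500 µg and then 200 µg. The starting day of this IgG is not stated. The fourth, called syngeneic (1 array), received B6 cells and no antibody that the labels mention.

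RNA of the recipients within an allogeneic group was combined before it was put on its arrays, so the spread between arrays may be technical and the p-values measure that spread alone. Strain of the donor, alloreactivity and the injection of any antibody cannot be told apart in any comparison with the syngeneic array. The median signal of an array was 145.3 to 174.3. T cell markers were abundant on all arrays, with a summed signal of 34556 to 54660 over 12 probe sets, as was the B cell marker Ms4a1, at 3142 to 9184, so the labelled spleen cells held both classes.

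All 5 receptor probe sets rose in the allogeneic groups against the syngeneic array, and those of Icos and Ctla4 rose most. Of all tested probe sets, 2.8% rose in the day 0 group, 2.89% in the day 3 group and 2.49% in the isotype group. Icos (probe set 1421930_at) read 4479 and 4518 in the anti-ICOSL day 0 group, 3453 and 3743 in the day 3 group, 4044 and 4383 in the isotype group and 480 on the syngeneic array. Its second probe set (1421931_at) read 2530 and 2303, 1966 and 1871, 2521 and 2127, and 277 in the same order of groups. Every allogeneic array was thus at least several times above the syngeneic one, and both probe sets placed the groups in the same order.

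On the log2(signal + 50) scale, which understates changes of dim probe sets, Icos rose by 3.10 ± 0.19 with day 0 treatment, 2.78 ± 0.19 with day 3 treatment and 3.01 ± 0.19 with isotype (SE of the limma fit; adjusted p = 0.00198, 0.00315 and 0.00208). The second probe set rose by 2.91 ± 0.21, 2.59 ± 0.21 and 2.85 ± 0.21. In isotype against syngeneic arrays, 16 of 15372 tested probe sets rose as far as the first one, itself included, which is 0.104%. Fitted to the day 3 and syngeneic arrays alone, the calls of both Icos probe sets and of Ctla4 ended (adjusted p = 0.0538 each).

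Ctla4, the inhibitory counterpart of Cd28, has a single probe set (1419334_at). It read 1754 and 1619 in the day 0 group, 1712 and 1539 in the day 3 group, 1879 and 1448 in the isotype group and 193 on the syngeneic array. The 6 allogeneic values spanned a narrow range, and the isotype pair enclosed the other 4. Ctla4 rose by 2.83 ± 0.23, 2.78 ± 0.23 and 2.80 ± 0.23 log2 units (adjusted p = 0.00369, 0.00352 and 0.00288, limma).

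Cd28, which naive T cells already carry, rose less. Probe set 1437025_at read 2589 and 2217 in the day 0 group, 2240 and 2154 in the day 3 group, 2216 and 3125 in the isotype group and 745 on the syngeneic array. Probe set 1417597_at read 1514 and 1335, 1555 and 1554, 1715 and 1470, and 606 in the same order of groups. No allogeneic array came near the syngeneic value. The allogeneic groups overlapped each other, except that both day 0 arrays lay below both day 3 arrays on 1417597_at.

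The first of these probe sets rose by 1.62, 1.50 and 1.75 log2 units in the day 0, day 3 and isotype groups (SE 0.26; adjusted p = 0.0199, 0.0259 and 0.0156, limma). The other rose by 1.17, 1.29 and 1.32 (SE 0.21; adjusted p = 0.0264, 0.0205 and 0.0192). These calls were near the threshold. Without isotype array 1 or 2, that of 1417597_at for isotype ended (adjusted p = 0.0654 and 0.0502), without day 0 array 1 or 2 its call for day 0 ended (0.108 and 0.0813), and without day 3 array 1 or 2 its call for day 3 ended (0.0787 and 0.0908). The call of 1437025_at ended without day 0 array 1 or 2 in the day 0 comparison (0.0937 and 0.0749) and without day 3 array 1 or 2 in the day 3 comparison (0.0881 and 0.0933). Some calls against syngeneic also ended when an array of a group not compared was left out: without day 3 array 1 or 2 for 1417597_at in the day 0 comparison (0.0609 and 0.0581), and without day 0 array 1 or 2 for 1437025_at in the day 3 comparison (0.0579 and 0.0566).

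The median change of the receptor probe sets was 2.83, 2.59 and 2.80 log2 units, and that of all tested probe sets was 0.01, 0.03 and −0.01. The 3 comparisons share the syngeneic array, so they are not independent of each other.

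**Figure D1:**
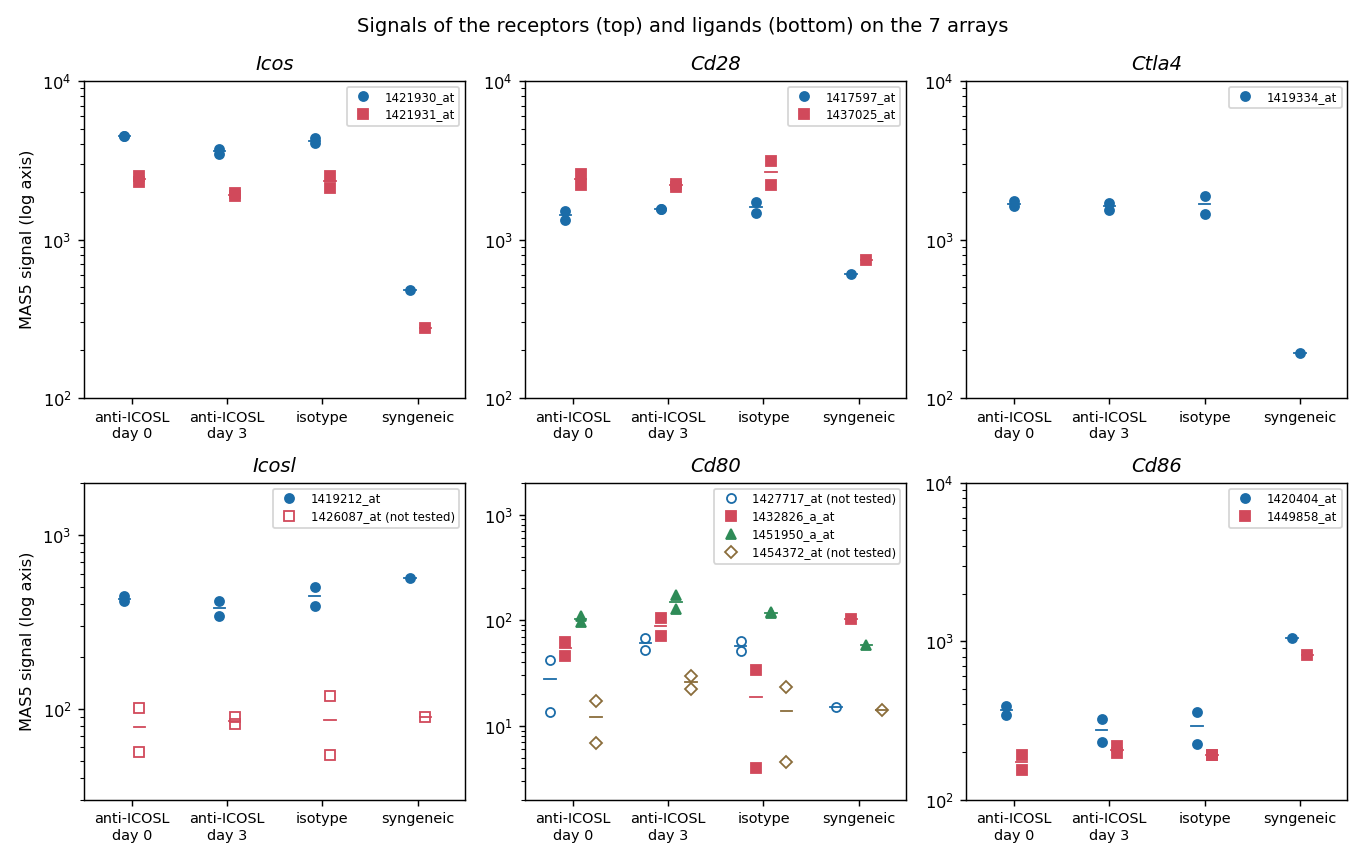
MAS5 signal (log axis) of each probe set on each array, by group, with a bar at the group mean. Points are single arrays and open points mark probe sets below the filter. Icos, Cd28 and Ctla4 lie above the syngeneic array on all 6 allogeneic arrays, and Cd86 lies below it on all 6.

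T cell markers moved less and not all in 1 direction. Of 12 markers tested, 2 rose with day 0 treatment, 1 with day 3 treatment and 3 with isotype, among them Cd4 and Thy1 in the isotype group, and the median change was 0.39, 0.31 and 0.48 log2 units. Their summed signal was 44958 and 47763 in the day 0 group, 46108 and 43466 in the day 3 group, 54660 and 47144 in the isotype group and 34556 on the syngeneic array, a ratio of 1.47 for isotype over syngeneic. The ratio for Icos (1421930_at) was 8.77, for Ctla4 8.60, and for the Cd28 probe sets 2.63 and 3.58. In the isotype group 9 markers were higher and 3 lower than on the syngeneic array, and the lower ones were Cd8a (−0.15 log2 units), Cd8b1 (−0.54) and Trat1 (−1.67), none of them called. None of the 12 was at 0, and Trat1, at 4.08 to 195 signal units, passed the filter only through the syngeneic array. In spleen tissue a larger number of T cells and more RNA per T cell cannot be told apart, and the part of T cell number in the rise was not tested.

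Cd28, Ctla4 and Icos lie side by side on chromosome 1 in the RefSeq annotation of GRCm38.p6, with 0 protein-coding genes between them. Of the nearest measured neighbours, 3 on each side, none passed the test in isotype against syngeneic arrays. The changes ran from −0.31 log2 units for Wdr12 to 0.94 for Fam117b (adjusted p = 0.456 and 0.0643, limma). Cd86 and Cd80 share chromosome 16 with 24 protein-coding genes between them, of which 10 were tested and 2 were called. Slc15a2, a peptide transporter, fell by 1.61 and Cox17, a copper chaperone of mitochondria, rose by 0.96 (adjusted p = 0.0320 and 0.0365, limma). Of the 3 nearest measured neighbours on each side of Icosl on chromosome 10, Pfkl alone was called (0.99, adjusted p = 0.0429, limma). Over all tested probe sets, 6.62% were called in isotype against syngeneic arrays.

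The promoter windows of a receptor that rose and of a ligand that showed no called change are set side by side here, from RefSeq on GRCm38.p6, with 250 bases before and 50 after the annotated start. Of the 6 genes, 3 matched the promoter table (Ctla4, Icosl and Cd80), and Icos, Cd28 and Cd86 did not. Capitals mark the letters GGAAA, the core that NFAT factors of activated T cells bind, TGANTCA, the AP-1 motif, and TATAAA, the TATA box, each searched on both strands. The windows are chr1:60908775-60909074 for Ctla4 and chr10:78069118-78069417 for Icosl, both on the plus strand.
Ctla4: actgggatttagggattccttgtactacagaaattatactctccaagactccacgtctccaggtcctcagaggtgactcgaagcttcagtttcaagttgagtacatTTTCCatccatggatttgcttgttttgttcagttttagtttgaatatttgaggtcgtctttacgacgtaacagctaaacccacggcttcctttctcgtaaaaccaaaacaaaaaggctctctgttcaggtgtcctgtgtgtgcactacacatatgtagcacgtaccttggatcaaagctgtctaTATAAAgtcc
Icosl: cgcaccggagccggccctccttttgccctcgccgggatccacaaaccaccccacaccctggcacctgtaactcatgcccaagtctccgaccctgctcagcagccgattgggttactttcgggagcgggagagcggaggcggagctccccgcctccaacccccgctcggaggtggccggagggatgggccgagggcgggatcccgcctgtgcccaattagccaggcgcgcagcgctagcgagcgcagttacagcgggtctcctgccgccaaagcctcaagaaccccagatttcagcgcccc

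The Ctla4 window is 42.0% G and C and holds 8 CG pairs, and the Icosl window is 68.0% G and C with 26 CG pairs, where the median over 32851 windows is 52.7% and 7. In the Ctla4 window 1 NFAT core begins 144 bases before the annotated start, on the minus strand, and a TATA box begins at base 41 after it. The Icosl window holds none of these motifs. Of all windows, 61.3% hold an NFAT core, 7.8% an AP-1 motif and 13.6% a TATA box. The matches are descriptions of letters, not binding sites.

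Cd86, the ligand of CD28 and CTLA-4 that resting presenting cells already carry, fell in every allogeneic group. Probe set 1449858_at read 153 and 193 in the day 0 group, 217 and 196 in the day 3 group, 192 and 192 in the isotype group and 820 on the syngeneic array. Probe set 1420404_at read 392 and 345, 321 and 233, 358 and 226, and 1041 in the same order. All 6 allogeneic arrays were far below the syngeneic one. Among allogeneic groups, day 3 lay above both others on the first probe set, and day 0 lay above day 3 on the second.

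The first probe set differed by −1.97, −1.76 and −1.85 log2 units in the day 0, day 3 and isotype groups (SE 0.21; adjusted p = 0.00615, 0.00861 and 0.00689, limma). The other differed by −1.38, −1.75 and −1.70 (SE 0.31; adjusted p = 0.0492, 0.0259 and 0.0274), calls that depended on single arrays. For isotype that call ended without isotype array 2 and without day 0 array 1 or 2 (adjusted p = 0.0762, 0.0666 and 0.0654). For day 3 it ended without any day 3 or day 0 array (0.0586 to 0.0962), and for day 0 without any day 0 or day 3 array (0.0655 to 0.162). Fitted to the day 3 and syngeneic arrays alone, the adjusted p of 1449858_at was 0.0610.

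Icosl, the ligand that the antibody binds, showed no called change at the transcript level. Probe set 1419212_at read 415 and 444 in the day 0 group, 342 and 417 in the day 3 group, 388 and 499 in the isotype group and 567 on the syngeneic array. Its allogeneic values were all below the syngeneic one, with differences of −0.37, −0.53 and −0.33 log2 units. Their 95% intervals ran from −0.93 to 0.20, −1.10 to 0.04 and −0.90 to 0.24, and the adjusted p was 0.403, 0.227 and 0.461 (limma). The second probe set (1426087_at), at 54.5 to 119 signal units on the 7 arrays, did not pass the filter, which asked for a group mean of 99.7.

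Cd80, the ligand that presenting cells raise on activation, was dim on all 7 arrays, and its 4 probe sets disagreed. Probe set 1451950_a_at read 96.5 and 109 in the day 0 group, 128 and 173 in the day 3 group, 117 and 119 in the isotype group and 58.1 on the syngeneic array. Probe set 1432826_a_at read 46.0 and 62.7, 70.3 and 104, 33.4 and 4.02, and 104 in the same order, and passed the filter only through the syngeneic array. The first was higher on every allogeneic array (0.50, 0.88 and 0.64 log2 units) and the second lower (−0.56, −0.17 and −1.19), apart from day 3 array 2, which was level with the syngeneic value. Neither passed the test (adjusted p = 0.235, 0.0667 and 0.154 for the first, 0.343, 0.774 and 0.0852 for the second, limma). Probe sets 1427717_at (13.6 to 68.3) and 1454372_at (4.55 to 29.7) stayed below the filter.

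Of the 8 ligand probe sets 5 were tested, and in each comparison with the syngeneic array 2 fell, both of Cd86, and 0 rose. The share of all tested probe sets that fell was 4.23% in the day 0 group, 4.32% in the day 3 group and 4.12% in the isotype group.

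Among markers of cells that carry these ligands, all those of macrophages fell with Cd86, as did a part of those of B cells and 1 of dendritic cells. All 12 macrophage markers fell in each allogeneic group, with a summed signal of 14428 and 14277 in the day 0 group, 12821 and 11578 in the day 3 group, 9074 and 8521 in the isotype group and 65765 on the syngeneic array. The median change was −1.97, −2.27 and −2.49 log2 units. In the isotype group Cd86 differed by −1.85 (1449858_at) and −1.70 (1420404_at). The medians of neutrophil and erythroid markers there were −1.84 and −1.67, and those of B cells and dendritic cells −0.64 and −0.62. With day 0 treatment Cd86 differed by −1.97 and −1.38, beside neutrophil and erythroid medians of −1.55 and −2.05. With day 3 treatment it differed by −1.76 and −1.75, beside −1.59 and −1.24. Which list stood nearest to Cd86 thus varied with the group and the probe set. B cell markers summed to 12701 and 11883, 12510 and 11701, 17584 and 15971, and 25815 in the same order, with 4, 4 and 1 of 8 that fell. All 8 stood lower than on the syngeneic array in each group. Dendritic cell markers summed to 1843 and 2205, 2265 and 2157, 2350 and 1671, and 3153, with 1 of 9 that fell in each group, the homing receptor Ccr7, while 4, 4 and 3 of the 9 stood higher than on the syngeneic array. Lists of cells not known for these ligands fell too: neutrophil markers summed to 12750 and 13698, 10969 and 10532, 10488 and 9774, and 37600 (6, 6 and 7 of 8 fell), and erythroid markers to 4553 and 4049, 6298 and 6562, 5136 and 5026, and 18628 (6, 3 and 3 of 6 fell). No tested marker of these lists was at 0, and their part in the fall of Cd86 was not tested.

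**Figure D2:**
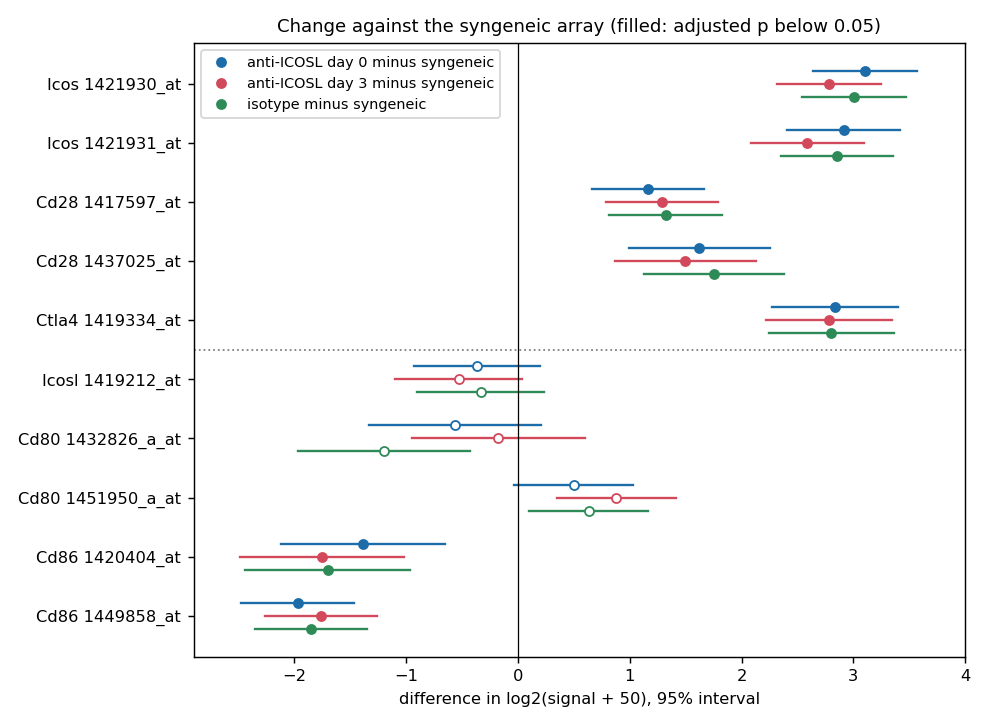
Difference of each tested probe set from the syngeneic array in log2(signal + 50), with its 95% interval from the limma fit, for the day 0, day 3 and isotype groups (receptors above the dotted line, ligands below). Filled points passed the adjusted threshold. The receptor probe sets lie between 1.17 and 3.10 and those of Cd86 between −1.97 and −1.38.

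**Figure D3:**
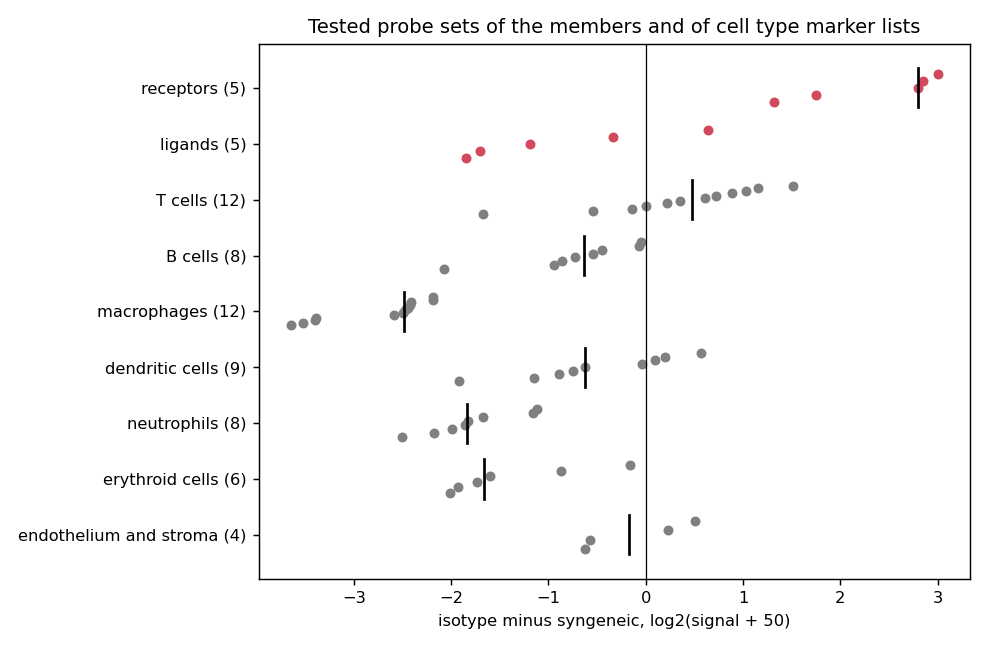
Difference of isotype from syngeneic arrays in log2(signal + 50) for the tested probe sets of receptors and ligands (red) and of 7 cell type marker lists (grey), with a bar at each median except that of the ligands and the number of probe sets in brackets. The receptor median of 2.80 lies above the T cell marker median of 0.48, and the macrophage median of −2.49 lies below that of B cells (−0.64).

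With anti-ICOSL from day 0, none of the 6 genes had a called difference from isotype. This comparison and the one for day 3 share the isotype arrays. Icos averaged 4499 ± 28 in the day 0 group and 4213 ± 240 in the isotype group (SD, n = 2 arrays each), a difference of 0.09 log2 units with an interval from −0.29 to 0.48. Ctla4 averaged 1687 ± 96 and 1664 ± 305, a difference of 0.03 (−0.43 to 0.49), and Icosl averaged 429.5 ± 21 and 444 ± 78, a difference of −0.03 (−0.50 to 0.43). The intervals of these 3 genes all include 0 and do not exclude small differences in either direction. Cd28 (1437025_at) averaged 2403 ± 263 and 2670 ± 643, and Cd86 (1420404_at) 368 ± 34 and 292 ± 94, with isotype arrays on either side of the day 0 mean for Cd28.

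The Cd80 probe set 1432826_a_at was the member farthest from isotype, at 46.0 and 62.7 with day 0 treatment against 33.4 and 4.02 with isotype. The difference was 0.63 ± 0.26 log2 units (adjusted p = 0.695, limma), and it rests on dim readings that vary widely within the isotype pair. The other Cd80 probe set differed by −0.14. Over all members 0 of 10 tested probe sets were called, and over the whole array limma called 0 of 15372 (0%), with 1103 at an unadjusted p under 0.05. With limma's trend and robust options 21 probe sets were called.

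With anti-ICOSL from day 3, both Icos probe sets stood below isotype, although neither difference passed the test. Probe set 1421930_at read 3453 and 3743 in the day 3 group against 4044 and 4383 in the isotype group, and 1421931_at read 1966 and 1871 against 2521 and 2127. On both probe sets the day 3 arrays lay below every isotype array and every day 0 array. The differences from isotype were −0.22 (interval −0.61 to 0.16) and −0.27 (−0.68 to 0.15), with adjusted p = 0.658 and 0.629 (limma). Arrays of the day 3 group lay wholly below those of isotype for 18.8% of all tested probe sets and for 2 of the 10 of the members, both of Icos. The share of the members is near that of all tested probe sets, so nothing is read from it.

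Day 0 against day 3 compares the schedules directly, which differ both in the start and in the amount of antibody given by collection. Icos was higher in the day 0 group by 0.32 ± 0.16 and 0.32 ± 0.17 log2 units, with intervals from −0.06 to 0.70 and −0.09 to 0.74 (adjusted p = 0.762 and 0.764, limma). Arrays of the day 0 group lay wholly above those of day 3 for 18.6% of all tested probe sets. Of the members, both Icos probe sets and Cd86 1420404_at (392 and 345 against 321 and 233) did so. They lay wholly below for 20.4% of all tested probe sets and for 4 of the 10 of the members: Cd28 1417597_at, both Cd80 probe sets and Cd86 1449858_at (153 and 193 against 217 and 196). The Icos differences kept their sign under all 15 alternative settings, with a range of 0.26 to 0.39 over both probe sets. Since these arrays do not overlap, leaving an array out could not change the sign. The differences of every other member except Ctla4 kept their sign too, so this is not particular to Icos.

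T cell markers stood beside this as follows. Their summed signal was 46108 and 43466 in the day 3 group against 54660 and 47144 in the isotype group, a ratio of 0.880. Of the 12 markers 8 were lower and 4 higher than isotype, with a median difference of −0.07 log2 units and 0 called. Cd4, the coreceptor of helper T cells, read 1608 and 1375 against 2434 and 2412, and Cd3e, a chain of the T cell receptor complex, read 5224 and 4353 against 7120 and 5195. Cd8a and Cd8b1, the chains of the killer T cell coreceptor, stood level or higher, with differences of 0.07 and 0.06 log2 units. These markers were picked after their values were seen, and the part of the list in the Icos difference was not tested.

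None of the other members passed the test by schedule. Ctla4 averaged 1625 ± 122 in the day 3 group and 1664 ± 305 in the isotype group, a difference of −0.02 (−0.48 to 0.44). Cd28 (1417597_at) averaged 1554 ± 0.83 and 1593 ± 173, and Icosl 379 ± 53 and 444 ± 78. Cd86 (1449858_at) averaged 207 ± 15 and 192 ± 0.16. For Cd80, 1432826_a_at read 70.3 and 104 in the day 3 group against 33.4 and 4.02 in the isotype group (1.02 ± 0.26 log2 units, adjusted p = 0.391, limma), and 1451950_a_at read 128 and 173 against 117 and 119 (0.24 ± 0.18). Both stood above isotype with day 3 treatment, at signals near or below the filter. Together with Cd86 1449858_at they were the members whose day 3 arrays lay wholly above isotype, as did 24.3% of all tested probe sets. Macrophage markers, set beside Cd86 and Cd80, were higher than isotype in 12 of 12 with day 0 treatment and 11 of 12 with day 3 treatment, with medians of 0.60 and 0.45 log2 units and 0 called, and their part was not tested.

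Limma called 0 of 15372 probe sets for day 3 against isotype (0%) and 0 for day 0 against day 3 (0%), with 1573 and 1043 at an unadjusted p under 0.05. With trend and robust options 5 and 12 were called. None of the members was called under any alternative setting in these comparisons or in day 0 against isotype.

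**Figure D4:**
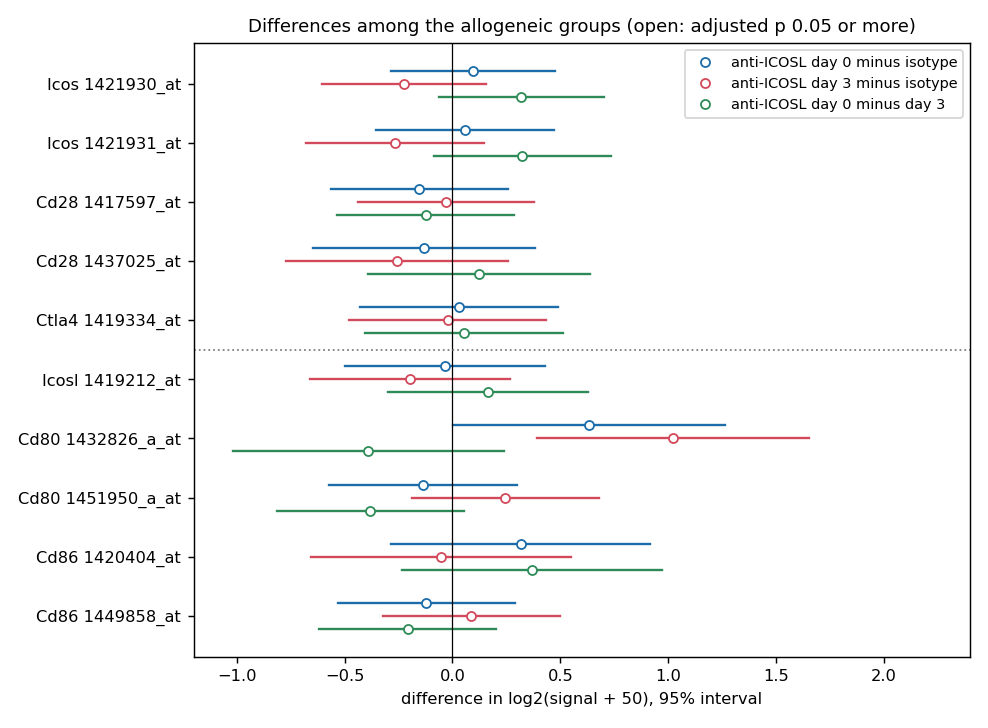
Differences of each tested probe set in log2(signal + 50) for day 0 minus isotype, day 3 minus isotype and day 0 minus day 3, with 95% intervals from the limma fit (receptors above the dotted line, ligands below). All points are open because none passed the adjusted threshold. Icos lies at −0.22 and −0.27 for day 3 minus isotype and at 0.32 for day 0 minus day 3 on both probe sets.

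By the order of group means, Icos ran from day 0 through isotype and day 3 to syngeneic on both probe sets, and only the step to syngeneic passed the test. Ctla4 had the same order of means, but its allogeneic groups overlapped. Cd86 1449858_at ran from syngeneic through day 3 and isotype to day 0, and 1420404_at from syngeneic through day 0 and isotype to day 3, so the order among allogeneic groups was not stable between its probe sets.

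Genes with the profile most like a member were found by the root mean square difference of log2 profiles, each centred on its own mean over the 7 arrays. The measure compares 8961 genes by 1 probe set each and is a description, since the arrays of a group share RNA and the syngeneic array weighs heavily. Closest to Icos were Gzmb, which encodes granzyme B of killer lymphocytes (0.10 log2 units), S100a6, a calcium-binding protein (0.14), and Havcr2, the inhibitory receptor TIM-3 (0.18). The second Icos probe set stood 0.13 from the first, so Gzmb lay as near as a repeat measurement of the gene itself. Gzmb read 30362 and 29223 in the day 0 group, 24767 and 27947 in the day 3 group, 25581 and 30122 in the isotype group and 3059 on the syngeneic array.

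Closest to Ctla4 were S100a4 (0.08), a calcium-binding protein, S100a6 (0.12) and Lag3, an inhibitory receptor that binds MHC class II (0.14). Icos itself was near, at 0.19 and 0.12 for its probe sets. Cd28 (1437025_at) was closest to the intermediate filament gene Vim (0.11), the mitosis regulator Pttg1 (0.12) and Gzma, another granzyme (0.13). It stood 0.48 from Ctla4 and 0.49 from Icos.

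Among ligands, Cd86 was closest to Alox5ap, a partner of leukotriene synthesis in myeloid cells (0.17), Ifitm6 (0.17) and Prg4 (0.17). Cd80 (1451950_a_at) was closest to Plbd2 (0.07), Ina (0.09) and Tcte1 (0.09). Ina and Tcte1 are dim as well, at 39.7 to 130 and 42.0 to 123 signal units. Icosl varied by 0.66 log2 units over the 7 arrays, under the 1 unit set for this search.

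**Figure D5:**
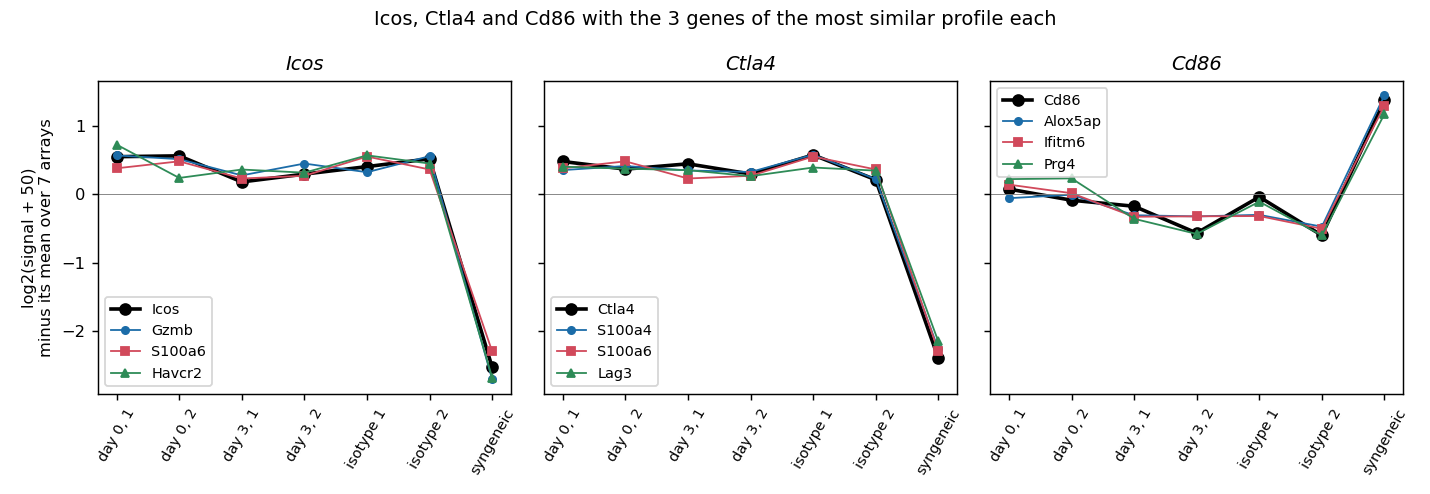
Profiles of Icos, Ctla4 and Cd86 (black) over the 7 arrays with those of the 3 nearest genes, as log2(signal + 50) minus the mean of each gene. The step between the allogeneic arrays and the syngeneic array dominates each panel, and the root mean square differences are 0.10 to 0.18 for Icos, 0.08 to 0.14 for Ctla4 and 0.17 for Cd86.

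Of 9 further receptors, ligands and partners of the CD28 and B7 families 6 were tested, and 1, Pdcd1, rose in each allogeneic group. Pdcd1, the inhibitory receptor PD-1 of activated T cells, read 720 and 1341 with day 0 treatment, 868 and 1380 with day 3 treatment and 929 and 1272 with isotype, against 58.9 on the syngeneic array. It passed the filter only through the allogeneic groups, where it is high, so nothing is read from its calls. Its ligand genes Cd274 and Pdcd1lg2 differed from syngeneic by −0.08 and 0.12 log2 units in the isotype group (adjusted p = 0.869 and 0.772, limma). Tnfrsf14 (HVEM), which binds the inhibitory receptor BTLA, read 192 and 276 with day 0 treatment, 288 and 167 with day 3 treatment and 397 and 204 with isotype, against 45.8 on the syngeneic array. Its differences of 1.55, 1.50 and 1.81 log2 units did not pass (adjusted p = 0.0862, 0.0915 and 0.0613, limma). The median of the 6 in the isotype group was 0.02, against −0.01 for all tested probe sets.

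Of 30 enzymes and adaptors listed for the CD28 and ICOS signal, or relatives of them, 24 were tested and few changed. In the isotype group 1 rose, Prkcq, the protein kinase C theta that links CD28 to NF-kappa B, at 3811 and 4113 against 1690 (1.20 ± 0.23 log2 units, adjusted p = 0.0317, limma). In the day 0 group Prkcq and Pik3cg, a catalytic subunit of PI3 kinase, rose (1.05 and 0.90, adjusted p = 0.0459 and 0.0450), and in the day 3 group 0 passed. Median changes were 0.14, 0.00 and 0.24 for day 0, day 3 and isotype. Pik3cd, the PI3 kinase subunit of lymphocytes, differed by 0.27 in the isotype group (adjusted p = 0.518).

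Transcripts that costimulation is known to raise in T cells stood higher, with 10 of 11 tested and Il2 below the filter. In the day 0 group 6 rose, in the day 3 group 4 and in the isotype group 4, and the medians were 1.67, 1.01 and 1.24 log2 units. Ifng, the cytokine interferon gamma, differed by 3.86, 3.25 and 3.77 and Il2ra, the alpha chain of the IL-2 receptor, by 3.16, 2.79 and 3.25. Il21, a cytokine of helper T cells, differed by 3.19, 3.22 and 3.09 and Tnfrsf4 (OX40) by 1.64, 1.21 and 1.47, all called in each group. Il10 and Tnfrsf9 (4-1BB) were the other 2 that rose in the day 0 group (1.71 and 1.22, adjusted p = 0.0286 and 0.0347, limma). Il21, at 4.43 on the syngeneic array, and Il10, at 78.3, passed the filter only through the allogeneic groups, where they are high. Nothing is read from their calls, which the counts include. Il4 read 106 and 91.2 in the day 0 group, 69.7 and 91.5 in the day 3 group, 27.3 and 29.7 in the isotype group and 107 on the syngeneic array. It was called lower in the isotype group (adjusted p = 0.0429, limma), but it passed the filter only through the syngeneic array, where it is high, so nothing is read from that call.

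Within this list the day 3 group stood below isotype in 8 of 10 genes, with a median difference of −0.27 log2 units against 0.03 for all tested probe sets, and 0 were called. Day 0 stood above day 3 in 9 of 10, with a median of 0.42 against −0.01, and 0 were called. Ifng read 1665 and 1698 in the day 3 group against 2262 and 2607 in the isotype group (adjusted p = 0.408, limma). Its order of groups was that of Icos, which not all genes of the list shared. Il21 and Il4 stood above isotype with day 3 treatment (0.14 and 0.73 log2 units), and Il2ra stood below isotype with day 0 treatment (−0.09).

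Genes that control the level or position of these proteins did not pass the test in any comparison with the syngeneic array, with 9 of 12 tested. They include Lrba, which protects CTLA-4 from degradation (1.16 log2 units in the isotype group, adjusted p = 0.102, limma), Adam10, a protease that sheds ICOSL (−0.07), Rc3h2, a repressor of Icos mRNA (−0.20), and Foxp3, the regulator of regulatory T cells, which carry much CTLA-4 (0.02). Foxp3 was dim, at 69.9 to 116 signal units.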

How the data were processed

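The authors deposited, for every probe set, a MAS5 signal (a linear intensity; the submitters' processing notes name no MAS5 version), made from 10 µg of RNA per array according to the labels' protocols. The 2% trimmed means of the 7 arrays agreed closely (500.181 to 500.193), so nothing was rescaled. Of 22690 probe sets, 64 controls were dropped. In the platform annotation 20380 of the rest had 1 symbol, 691 several and 1555 none, and members were those with 1 of the 6 symbols alone.

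Values were taken as log2(signal + 50). Testing required a group mean of 99.7 or more, the 40th percentile of all signals, in any group, which left 15372 probe sets. A single limma model (version 3.58.1, R 4.3.3) of 4 group means over 7 arrays had 3 residual and 3.36 prior degrees of freedom, borrowing the spread of the syngeneic group from the others. Its 6 two-sided comparisons were adjusted by Benjamini-Hochberg over all tested probe sets, with a threshold of 0.05. The procedure was tested on simulated data. The number of arrays limits the precision.

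All members were named, with called genes of each pathway list (up to 4 by size for isotype against syngeneic) and the 3 genes nearest in profile. Other genes were named after their values were seen. Members and lists were chosen with earlier results of these data known. Alternatives changed the pseudocount (16, 100), the filter (60th percentile, none), the scaling (quantile, median), the block by replicate number, the arrays fitted, limma's trend and robust options, or left out 1 allogeneic array.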

Additional observations from a re-analysis of the deposited data

How the results depend on the processing

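Of the 60 results of single member probe sets, 21 were called, and 9 of them stayed called under all 15 settings: both Icos probe sets, Ctla4 and Cd86 1449858_at for isotype and for day 0 against syngeneic, and Cd28 1437025_at for isotype. The other 12 lost the call under 1 to 8 settings, and 0 of the 39 uncalled results became called. Counts of called probe sets depended on the setting. For isotype against syngeneic 1017 became 542 with no filter, 1616 with the stricter filter, 611 with the compared groups alone, 1786 with trend and robust options, 798 with the replicate block, and 409 to 708 with an array left out. For day 0 against syngeneic 1081 became 552, 1783, 1365, 1945, 829 and 246 to 932, and for day 3 against syngeneic 1108 became 526, 1794, 0, 1898, 858 and 286 to 911. The cause was not tested, apart from the fewer arrays and degrees of freedom that some settings leave. Among allogeneic groups, the count of 0 (day 0 to isotype, day 3 to isotype, day 0 to day 3) became 13, 8 and 7 with the stricter filter, 3, 2 and 6 with a pseudocount of 100, and 21, 5 and 12 with trend and robust options. It stayed at 0 with the replicate block and with any array left out.

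With median centring, all tested probe sets had a median difference of 0.11 between isotype and syngeneic arrays (−0.01 without it), and 49.0% of the called ones were higher (37.7% without it). Every member call held under it except that of Cd86 1420404_at for day 0 (adjusted p = 0.0600). Uncalled differences changed sign in 18 instances, to values between −0.15 and 0.23 log2 units. Ctla4 in day 0 against isotype was −0.0061 with median centring, and Cd86 1449858_at in day 3 against isotype was −0.0098 with quantile normalization. With an array left out, Ctla4 ran from −0.15 to 0.21 in day 0 against isotype, −0.21 to 0.16 in day 3 against isotype and −0.022 to 0.13 in day 0 against day 3. In day 0 against isotype, Icos 1421931_at ran from −0.061 to 0.18, Cd28 1437025_at from −0.38 to 0.11, Icosl 1419212_at from −0.20 to 0.13 and Cd86 1449858_at from −0.25 to 0.0062. In day 3 against isotype, Cd28 1417597_at ran from −0.14 to 0.078 and Cd86 1420404_at from −0.33 to 0.23. Cd80 1432826_a_at in day 3 against syngeneic ran from −0.35 to 0.0064.

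The labels number the arrays of each allogeneic group 1 and 2 and do not say that a number is shared. Differences of array 1 from array 2 correlated across probe sets at −0.01 to 0.07 between groups, so the block has no basis in these numbers. Dim signal limits Cd80 and the second Icosl probe set, whose values carry no detection call here.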
